A study of Mus musculus with 9 samples.

Results

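The cornified envelope is the shell of cross-linked protein that replaces the membrane of a keratinocyte as it dies at the skin surface. Its transcripts were measured in whole skin of mice that lack Cd1d and in wild-type skin. The set was given by name and holds 10 genes: loricrin (Lor), filaggrin (Flg), involucrin (Ivl), the small proline-rich proteins Sprr1a, Sprr1b and Sprr3, the transglutaminases Tgm1 and Tgm3, envoplakin (Evpl) and periplakin (Ppl). The platform annotation assigns 11 of the 12422 probe sets used to 8 of these genes, and Tgm1 and Evpl were not analysed here. Of the 11 probe sets, 7 passed the filter on low signal, and they read 6 genes: Lor, Flg, Ivl, Sprr1a, Sprr1b (by 2 probe sets) and Ppl.

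The samples are skin of 5 knockout mice (Cd1d -/-), which lack the molecule that presents lipids to natural killer T cells, and of 4 wild-type mice (Cd1d +/+). All were on the C57BL/6 background, matched for age and sex per the labels, and none had been irradiated with UVB. Each mouse gave 1 Affymetrix MG-U74 array, so replicates are animals. The labels state no age and no detail of the deleted allele, and whole skin mixes epidermis with hair follicles, dermis, fat and muscle. Fewer cells of a type and less RNA per cell therefore cannot be told apart in any value below.

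Keratinocytes build the envelope in order as they move outward. Involucrin, envoplakin and periplakin form a first scaffold under the membrane, transglutaminases join proteins through glutamine and lysine side chains, and loricrin and the small proline-rich proteins then make up much of the finished shell. Filaggrin bundles the keratin filaments inside the cell and is later broken down to moisture-binding amino acids.

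Lor, Flg, Ivl, Sprr1a, Sprr1b and Sprr3 lie on chromosome 3, in the gene cluster called the epidermal differentiation complex, whereas Tgm3, Evpl, Tgm1 and Ppl lie on chromosomes 2, 11, 14 and 16. Their promoters are shown because some neighbours in this cluster, though not all, are switched on in the same cells. The search covered the 250 bases before the RefSeq start (build GRCm38.p6) for TGANTCA and for TATAAA, the latter on either strand. TGANTCA is a loose form, with any middle base, of the core recognised by AP-1 factors, and reads the same on both strands. The promoter table holds 8 of the 10 genes and lacks Evpl and Ppl. TGANTCA is present in 5 of the 8 genes, against 6.75% of all 32851 promoters in the table, and TATAAA in 7 of the 8, against 12.4%. The envelope count is by gene, with any promoter of the gene, and the share is by promoter (27025 genes). Most of the 8 genes lie in the same cluster and some are close copies, so they are not independent draws. The matches are letters in a window and were not shown to be sites in use. The last 150 bases before the start are printed for the 5 genes with TGANTCA, which is set in capitals, 5′ to 3′ on the gene's own strand. They are Lor at chr3:92083143-92083292 (minus strand), Sprr1b at chr3:92438780-92438929 (minus), Sprr1a at chr3:92485882-92486031 (minus), Ivl at chr3:92573736-92573885 (minus) and Flg at chr3:93273396-93273545 (plus).
Lor: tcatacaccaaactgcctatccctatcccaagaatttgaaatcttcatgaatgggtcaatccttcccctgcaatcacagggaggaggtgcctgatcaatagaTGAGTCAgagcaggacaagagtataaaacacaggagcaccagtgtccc
Sprr1b: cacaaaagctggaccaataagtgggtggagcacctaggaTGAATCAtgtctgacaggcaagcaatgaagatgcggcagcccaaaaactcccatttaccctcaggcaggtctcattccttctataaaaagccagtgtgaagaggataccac
Sprr1a: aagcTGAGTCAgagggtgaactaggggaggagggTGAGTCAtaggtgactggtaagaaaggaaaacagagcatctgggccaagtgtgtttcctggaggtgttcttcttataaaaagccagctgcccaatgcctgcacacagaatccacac
Ivl: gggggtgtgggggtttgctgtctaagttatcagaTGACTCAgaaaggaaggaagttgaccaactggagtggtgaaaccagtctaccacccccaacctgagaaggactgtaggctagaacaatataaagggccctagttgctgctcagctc
Flg: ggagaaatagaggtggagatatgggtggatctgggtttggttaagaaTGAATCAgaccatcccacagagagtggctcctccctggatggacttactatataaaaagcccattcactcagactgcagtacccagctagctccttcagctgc
The match begins 48 bases before the start in Lor, 103 in Flg, 111 in Sprr1b and 116 in Ivl, and Sprr1a holds 2 matches, at 146 and 116 bases. The matched letters are TGAGTCA in Lor and Sprr1a, TGACTCA in Ivl, and TGAATCA in Flg and Sprr1b. In all 5 genes TATAAA lies between the TGANTCA match and the start.

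Signals are MAS5 values in arbitrary units, and a log2 difference is knockout minus wild type. Levels of different probe sets are not compared, because each has its own probes. Values with ± are means and SD over 5 knockout or 4 wild-type mice, knockout first. Epidermal RNA was plain: Krt10, a keratin of the suprabasal layers, read 6835 ± 845 (n = 5) against 6333 ± 403 (n = 4). Cd1d1, the targeted gene, read 47.6 to 79.6 in the knockout mice and 91.0 to 130 in the wild type, without overlap (log2 -0.86, limma adjusted p = 0.242). The probe sets of the basal keratins Krt14 and Krt5 were too dim to pass the filter, although other basal genes did pass. In other tissue markers, the summed signal of 9 macrophage and Langerhans cell genes was 9405 to 11558 in the knockout mice and 11608 to 13381 in the wild type, and that of 3 red cell genes 1324 to 2013 and 3293 to 5017. Only in these tissue lists did the ranges not overlap, and those of the macrophage list nearly touched. The ranges overlapped for basal keratinocytes, hair follicle, sebaceous gland, fibroblasts, skeletal muscle, adipocytes, T cells, melanocytes and the lining of mouth and oesophagus. Such sums are led by the brightest probe sets. Knockout 4 stood apart from the other arrays, with a mean correlation of 0.908 to its own group against 0.937 to 0.952 for the other 8 arrays. Together with wild type 2 it received the lowest array weights in limma, 0.329 and 0.363 against 1.08 to 1.65. The labels name no batch, but the deposited values carry 7 decimals in knockout 1 and 2 and wild type 2, 3 and 4, and 9 decimals in the other 4 arrays.

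No envelope gene passed the test for a difference between the genotypes. Across all 7658 kept probe sets limma called 4 at an adjusted p of 0.05, which is 0.0522%, and 0 of the 7 envelope probe sets were among them. At an unadjusted p under 0.05 limma called 1 of the 7, that of Ivl, where the share among all kept probe sets is 9.40% (5.45% with the knockout higher and 3.96% with it lower). Of the 7 log2 differences, 3 were above 0 and 4 below it. Represented by 1 probe set each, the 6 genes had a median log2 difference of 0.12, beside 0.0070 over all 5855 kept genes. The plot of differences shows how wide the intervals were.

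**Figure D1:**
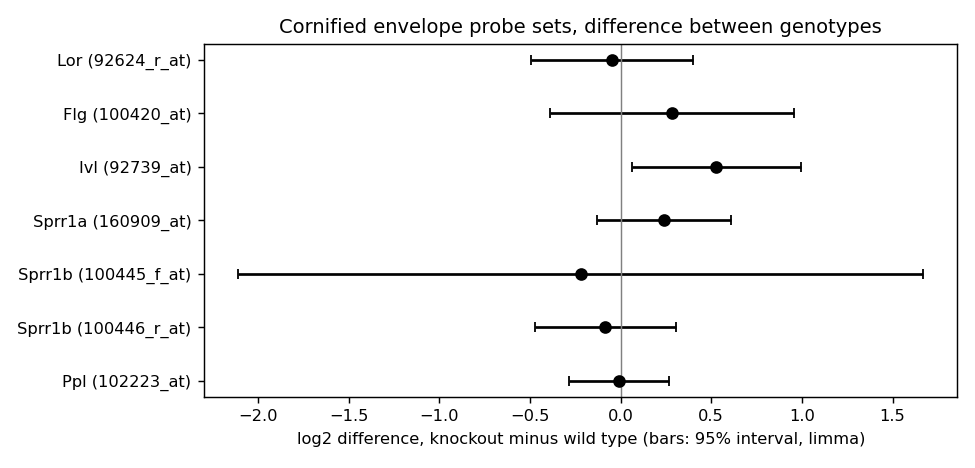
Log2 difference between knockout and wild-type skin (horizontal axis) for the 7 kept envelope probe sets; points are limma estimates and bars their 95% intervals. The interval of Ivl lies above 0 and the others span it, with that of Sprr1b (100445_f_at) the widest, from -2.11 to 1.67.

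Ivl, the early scaffold protein on which the envelope is laid down, had the largest difference of the 7. Its probe set (92739_at) read 81.3, 91.2, 77.1, 118 and 69.1 in knockout mice 1 to 5. In wild-type mice 1 to 4 it read 63.8, 67.7, 43.6 and 66.6. Every knockout mouse thus lay above every wild-type mouse, but the lowest knockout value, 69.1, and the highest wild-type value, 67.7, lay close together. Such a separation, with the knockout higher, was present in 1.83% of the kept probe sets, in 1.38% with it lower and in 3.21% counting both directions. The means were 87.3 ± 18.9 (SD, n = 5) and 60.4 ± 11.3 (SD, n = 4), and the log2 difference was 0.53 (SE 0.21, 95% interval 0.064 to 0.99). The limma p was 0.0290 before and 0.477 after adjustment. The difference was 0.38 without wild type 3, 0.41 without knockout 4 and 0.51 without knockout 2, and in each of these the unadjusted limma p was above 0.05 (0.0969, 0.0655 and 0.0568). With a pseudocount of 64, which tempers low signals, it was 0.28. These are dim signals, close to the filter level of 43.4 to 53.3, and the value of wild type 3 was below that array's level. Within the 7-decimal arrays (2 knockout, 3 wild type) the difference was 0.57 and within the 9-decimal arrays (3 and 1) it was 0.43.

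Ppl, a plakin that links the envelope to keratin filaments, was the steadiest. Its probe set (102223_at) read 2027, 2101, 2649, 2436 and 2357 in knockout mice 1 to 5, and 2244, 1899, 2556 and 2631 in wild-type mice 1 to 4. The groups overlapped fully and the means differed little, at 2314 ± 254 and 2333 ± 334. The log2 difference was -0.0069 (95% interval -0.28 to 0.27, limma adjusted p = 0.992), with -0.18 within the 7-decimal and 0.14 within the 9-decimal arrays. The spread of Ppl within the genotypes, 0.18 as a residual SD on the log2 scale, was at the 20.3rd percentile of all kept probe sets.

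**Figure D2:**
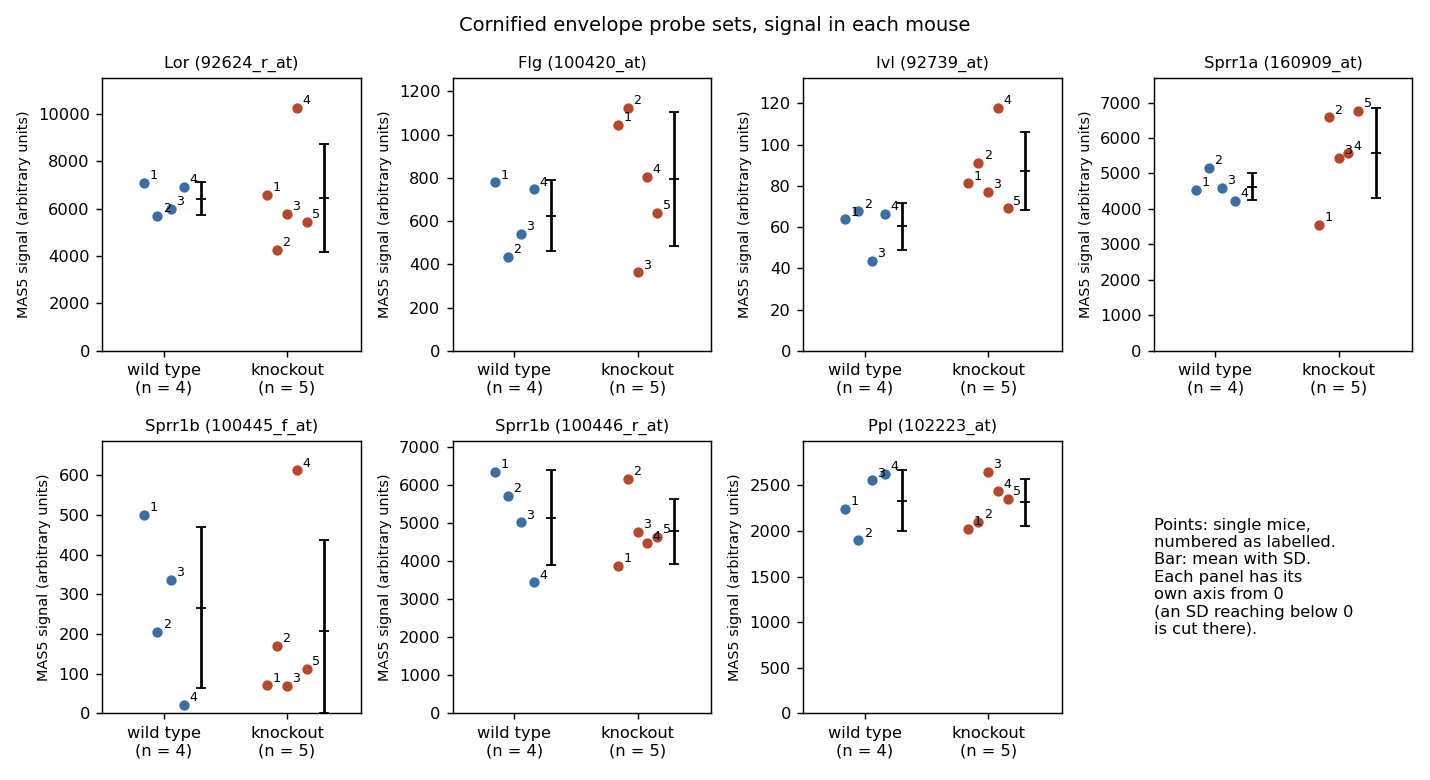
Signal of the 7 kept envelope probe sets in each mouse (vertical axes, MAS5 units, linear from 0), by genotype; points carry the mouse number and bars give mean and SD (n = 4 and 5). Ivl is the only panel in which the groups do not overlap, and knockout 4 is the highest point of Lor, Ivl and Sprr1b (100445_f_at).

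Lor, the glycine-rich protein that makes up most of the envelope of the mouse epidermis, gave equal means with unequal spread. Its kept probe set (92624_r_at) read 6582, 4252, 5798, 10274 and 5448 in knockout mice 1 to 5. The wild-type mice read 7093, 5704, 6001 and 6922. The knockout values run from below to above all wild-type values, 2.42-fold from lowest to highest against 1.24-fold in the wild type. The means were 6471 ± 2286 and 6430 ± 681, with a log2 difference of -0.049 (95% interval -0.50 to 0.40, limma adjusted p = 0.964). The highest value is that of knockout 4, and without that array the difference was -0.23 (limma adjusted p = 0.602). The lowest is that of knockout 2, and without it the difference was 0.086. Without wild type 1 it was 0.00032. Within the 7-decimal arrays the difference was -0.23 and within the 9-decimal arrays -0.046. The suffix r marks a probe set for which the maker's selection rules had been relaxed. The second Lor probe set (162324_at) never reached the filter level, at 4.3 to 33.9 over the 9 arrays, and carries no usable comparison.

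Flg, whose product is stored in keratohyalin granules before it joins the keratin matrix, varied more between mice than most genes. Its kept probe set (100420_at) read 1046, 1125, 363, 804 and 640 in knockout mice 1 to 5, and 780, 434, 541 and 747 in wild-type mice 1 to 4. Knockout 1 and 2 were above all wild-type mice and knockout 3 was below them all. The means were 796 ± 309 and 625 ± 166, and the log2 difference was 0.28 (SE 0.31, 95% interval -0.39 to 0.95, limma adjusted p = 0.804). Its residual SD of 0.56 on the log2 scale was at the 91.2nd percentile of the kept probe sets.

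The direction of Flg depended on which arrays were compared. Within the 7-decimal arrays, where knockout 1 and 2 are the only knockout mice, the log2 difference was 0.96 (SE 0.24, limma adjusted p = 0.253, and 0.00495 before adjustment). Within the 9-decimal arrays, which hold 1 wild-type mouse assumed to vary like the others, it was -0.45 (adjusted p = 0.998). Without knockout 3, the lowest array and so singled out by its value, it was 0.54 (limma adjusted p = 0.437, and 0.0418 before adjustment). It was 0.12 without wild type 2, 0.13 without knockout 2 and 0.16 without knockout 1. A further Flg probe set (161981_r_at) was too dim, at 1.3 to 11.1.

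Casp14, the protease that helps break filaggrin down in the outermost layers, showed the same leading mice. It read 569, 697, 198.5, 310 and 298 in knockout mice 1 to 5, and 268, 196, 169.5 and 243 in wild-type mice 1 to 4. Knockout 1 and 2 were again the highest arrays. The log2 difference was 0.79 (SE 0.33), with a limma p of 0.0323 and an adjusted p of 0.494.

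Hair follicle genes differed widely between mice, in an order only partly like that of Flg and Casp14. The summed signal of the 19 measured genes (of 36 listed, 24 with a probe set) was 1655 to 40434 in the knockout mice and 2221 to 4510 in the wild type. Some passed the filter mainly through knockout mice, such as Krt34 through knockout 1, 2 and 5 and wild type 3. Limma passed 0 of the 19 genes, with the smallest adjusted p at 0.363. Their median, centred on the mean of the 9 arrays in log2, was 0.58, 2.81, -0.76, -1.79 and 2.56 in knockout mice 1 to 5, and ran from -1.35 to 0.057 in the wild-type mice. Knockout 2 was thus high in all of these, but knockout 5, with a follicle median of 2.56, was not. Its Flg signal (640) lay within the wild-type range and its Casp14 signal (298) below that of knockout 4 (310). With the follicle median as a covariate the log2 difference of Flg was 0.11 (SE 0.33), against 0.28 without it. That of Ivl was 0.68 (SE 0.23, limma adjusted p = 0.414). Lor was lowest in knockout 2 and highest in knockout 4, the mice with the highest and the lowest follicle median. Wild type 2 did not follow this order: it had the lowest follicle median of the wild type (-1.35) and also its lowest Lor signal (5704). With the covariate the difference of Lor was 0.21 (SE 0.16) in place of -0.049, with a limma adjusted p of 0.648. The part of the follicle in these differences was not tested further.

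Sprr1a and Sprr1b are close copies that serve as cross-bridging proteins of the envelope and are known to increase in injured skin. Sprr1a (160909_at) read 3560, 6587, 5442, 5566 and 6762 in knockout mice 1 to 5. In wild-type mice 1 to 4 it read 4538, 5166, 4593 and 4234. Of the 5 knockout mice, all but knockout 1 were above the wild-type range. The means were 5583 ± 1276 and 4633 ± 389, with a log2 difference of 0.24 (SE 0.17, 95% interval -0.13 to 0.61, limma adjusted p = 0.702). Without knockout 1, singled out as the lowest array, the difference was 0.39 (limma adjusted p = 0.581, and 0.00554 before adjustment). A p obtained by leaving out an array for its value is no evidence of a difference. With all arrays the limma p before adjustment was 0.184. The 7-decimal arrays alone gave 0.059 and the 9-decimal arrays 0.38.

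Sprr1b was read by a pair of probe sets that did not show the same spread. One (100446_r_at) read 3873, 6163, 4761, 4467 and 4637 in knockout mice 1 to 5, and 6348, 5722, 5020 and 3446 in wild-type mice 1 to 4. The groups overlapped, at 4780 ± 845 and 5134 ± 1249 (log2 difference -0.084, 95% interval -0.47 to 0.31, limma adjusted p = 0.917). The difference was 0.079 within the 7-decimal and -0.46 within the 9-decimal arrays. The other (100445_f_at) read 71.2, 170, 70.3, 612 and 112 in knockout mice 1 to 5, and 500, 206, 337 and 21.8 in wild-type mice 1 to 4.

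In that second probe set the wild-type values alone spanned 22.9-fold, and its residual SD of 1.64 on the log2 scale was at the 99.7th percentile of all kept probe sets. Its log2 difference was -0.22 (95% interval -2.11 to 1.67, limma adjusted p = 0.961). It was -1.20 without wild type 4 and -0.75 without knockout 4. It was above 0 without wild type 1 (0.31), wild type 3 (0.12), knockout 1 (0.030) or knockout 3 (0.035), so its direction rested on single mice. Within the 7-decimal arrays it was -0.060 and within the 9-decimal arrays -1.56. The suffix f marks a probe set that matches several members of a gene family, so near-identical Sprr transcripts may add to its signal.

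The keratins Krt6b and Krt16, which are made in the follicle and in stressed epidermis, were highest in the same mice. Both were chosen after their values were seen. In their list of stress keratins and alarmins 7 of 8 genes were kept, with a median of -0.29, and limma passed 0. At an unadjusted p under 0.05 it called 3 of the 7, 1 higher and 2 lower, where the share among all kept genes is 8.56%. The list was chosen with earlier results of these data known, so no excess can be read from this count. Krt6b read 233, 213, 394, 946 and 231 in knockout mice 1 to 5, and 2021, 1380, 1137 and 213 in wild-type mice 1 to 4. Krt16 read 48.3, 76.6, 149, 460 and 107 in knockout mice 1 to 5, and 473, 361, 258 and 44.2 in wild-type mice 1 to 4. In both, and in Sprr1b (100445_f_at), the 4 highest arrays were knockout 4 and wild type 1, 2 and 3. Not all genes of the list had this order. By the probe set of highest mean, Krt6a, the near copy of Krt6b, was high in knockout 5 (4757) as well as in wild type 1, 2 and 3 (5182, 3855 and 3925), and read 3085 in knockout 4. The alarmin S100a8 was highest in knockout 4 (326) and knockout 1 (231), with a log2 difference of 0.70 (limma adjusted p = 0.461), and Krt17 had one of 0.0018 (adjusted p = 0.998). The alarmin S100a9, the gene of the list that was not kept, went the other way. It read 5.1 to 27.2 in the knockout mice and 28 to 83.7 in the wild type, and reached the filter level in 3 arrays. The log2 differences were -1.43 for Krt6b (limma adjusted p = 0.511, and 0.0385 before adjustment) and -0.78 for Krt16 (adjusted p = 0.781).

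**Figure D3:**
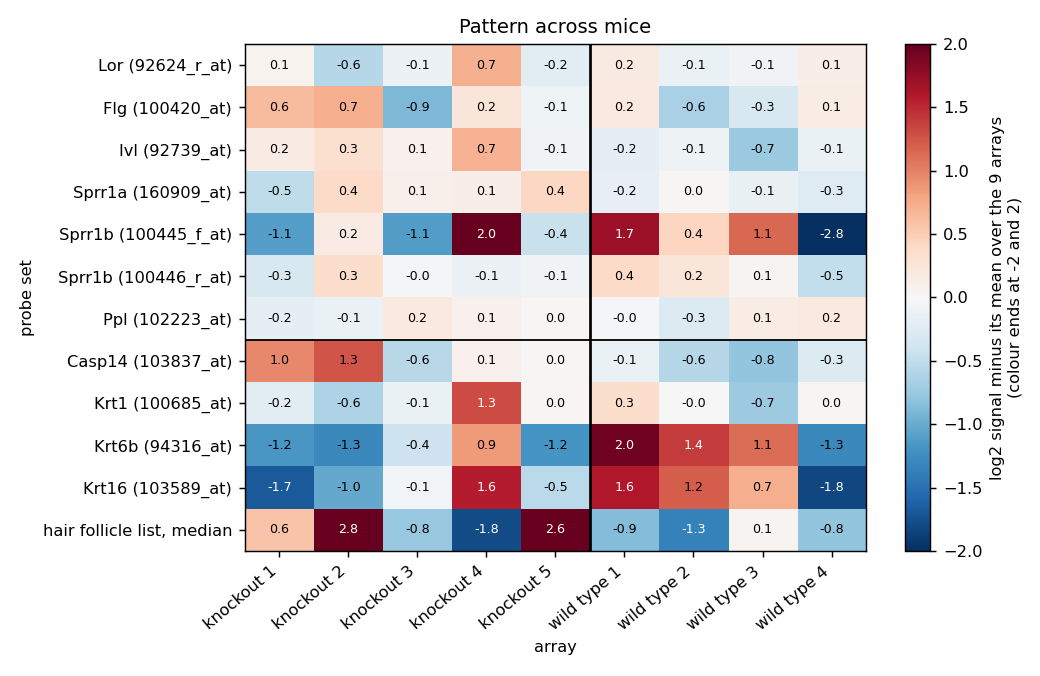
Log2 signal minus its mean over the 9 arrays (colour and printed values) for the 7 kept envelope probe sets and, below the line, Casp14, Krt1, Krt6b, Krt16 and the median of the hair follicle genes. Columns are mice, knockout left of the line; Sprr1b (100445_f_at), Krt6b and Krt16 share their high arrays, while Flg and Casp14 are high in knockout 1 and 2.

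Sprr3, a proline-rich protein best known from the lining of the mouth and oesophagus, was dim in this skin. Its probe set (101762_at) read 8.7, 24.6, 27.8, 39.4 and 12.1 in knockout mice 1 to 5, and 10.7, 10.9, 11.6 and 28.1 in wild-type mice 1 to 4. No array reached the filter level, so these values have no firm order. Of the 5 genes listed for the lining of mouth and oesophagus, 2 had a probe set and 1 passed the filter.

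Tgm3, the transglutaminase of the inner root sheath and the upper epidermis, reached the filter level in 1 array only. Its probe set (96566_at) read 21.1, 78.7, 10.3, 15.1 and 33.9 in knockout mice 1 to 5, and 7, 14.7, 17.6 and 15.4 in wild-type mice 1 to 4. The 3 highest values belong to knockout 2, 5 and 1, in which the hair follicle medians were also highest; the part of the follicle in the Tgm3 signal was not tested. Fitted without the filter, its log2 difference was 0.92 (SE 0.55, limma adjusted p = 0.697).

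The envelope genes did not follow a common pattern across mice. Over the 20 pairs of kept probe sets of different genes, Pearson correlations of log2 signal over the 9 arrays ran from -0.42 to 0.45, with 11 of 20 above 0. For the 2 probe sets of Sprr1b the correlation was 0.67 (Spearman 0.52). These are descriptions, because all points share 9 arrays and their scaling. The 5 genes most like the mean profile of the 6 envelope genes were Phlda1 (Pearson r 0.95, Spearman rho 0.95), Mrfap1 (0.94, 0.93), Mrps15 (0.94, 0.83), Rcn1 (0.94, 0.87) and Ap3s2 (0.93, 0.97). Those most like Lor alone were Fgfr1op2 (0.95, 0.90), Cyp4v3 (0.92, 0.78) and Marchf5 (0.91, 0.83). All 8 were picked as the best of all kept genes on 9 arrays, so their r values are high by selection, and all 8 were highest in knockout 4.

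The rest of the cornification programme was read by 5 further lists, and limma called 0 genes in each of them at an adjusted p of 0.05. Over all 5855 kept genes 8.56% had an unadjusted p under 0.05 (277 higher and 224 lower in the knockout), and 2852 had a difference below 0. The counts below are set beside these. The lists were made with earlier results of these data known, so no excess can be read from the counts. In the list of other envelope precursors and genes of the epidermal differentiation complex, 23 of 59 genes had a probe set and 18 were kept. Their median log2 difference was -0.14, 13 were below 0, and 2 of 18 had an unadjusted p under 0.05, both lower, near the share of all genes. These were Sprr2j-ps at 632 ± 274 against 959 ± 78.9 (log2 -0.71, limma adjusted p = 0.471) and Sprr2k at 59.7 ± 14.2 against 83.9 ± 12.0 (-0.51, 0.505). S100a3, a calcium-binding protein of the hair cuticle, read 1234 ± 1216 against 144 ± 94.9 (2.12, 0.558), and its 3 highest arrays, knockout 1, 2 and 5, had the 3 highest follicle medians.

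The Sprr2 genes, small proline-rich relatives in the same gene cluster, had a log2 difference below 0 in 9 of 10 kept probe sets; limma passed 0 of them, and 2 of 10 had an unadjusted p under 0.05, where all kept probe sets give 9.40%. Most of these probe sets match several family members, so the 10 are not independent readings. In 5 of the 10 the lowest array was knockout 4, such as Sprr2e at 451 against 968 to 1347 in the other knockout mice and 1028 to 1283 in the wild type. Sprr2g read 200 in knockout 4 against 455 to 868 in the other knockout mice. Sprr2b instead was high in knockout 3 (1320) and wild type 2 (1153) and read 171 to 486 in the other arrays.

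Among cross-linking and processing enzymes and their inhibitors 12 of 21 genes were kept, with a median of 0.00049 and 2 of the 12 at an unadjusted p under 0.05 (8.56% over all genes), both higher: Casp14, given above, and Padi4, which converts arginine to citrulline (130 ± 58.8 against 75.6 ± 8.76, log2 0.68, limma adjusted p = 0.506). Padi4 was highest in knockout 2 and 5, where follicle medians were highest. The protease Capn1 read 1084 ± 103 against 1238 ± 66.0 (-0.19, 0.607).

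The suprabasal keratins and desmosome genes, which give the dying cells their filaments and contacts, had 12 of 18 members kept and a median of 0.078. Of these 12, 3 had an unadjusted p under 0.05 (8.56% over all genes), all higher in the knockout. The desmosomal cadherin Dsc1, of the outer layers, read 306, 363, 240, 583 and 325 in knockout mice 1 to 5, and 197, 190, 110 and 272 in wild-type mice 1 to 4. All knockout mice but knockout 3 lay above the wild-type range (log2 0.92, SE 0.28, limma adjusted p = 0.370, and 0.00670 before adjustment). Dsc3, a cadherin of the lower layers, read 159 ± 17.9 against 117 ± 31.0 (0.47, 0.462), and the plakophilin Pkp2 73.2 ± 16.6 against 52.0 ± 2.63 without overlap (0.47, 0.517). Such a separation, with the knockout higher, was present in 1.83% of all kept probe sets. The Pkp2 signals were dim, at 49.4 to 54.8 in the wild type, where the filter level of the arrays was 43.4 to 53.3. Krt1, chosen after its values were seen, was highest in knockout 4 as Lor was, at 5312 against 1403 to 2216 in the other knockout mice. Without knockout 4 the list median was -0.019.

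Of 20 barrier lipid genes 13 were kept, with a median of -0.020 and 1 of 13 at an unadjusted p under 0.05, near the 8.56% of all genes. This was Abhd5, a lipase activator needed for the lipid layer bound to the envelope, at 393 ± 67.2 against 313 ± 33.2 (log2 0.32, limma adjusted p = 0.529). The lipoxygenase Alox12e read 1254 ± 888 against 1703 ± 507 (-0.60, 0.636) and Alox12b, which acts on the ceramides of the barrier, 200.3 ± 56.5 against 238 ± 36.0 (-0.27, 0.697).

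Of 31 regulators of keratinocyte differentiation 23 were kept, with a median of 0.086. Of the 23, 7 had an unadjusted limma p under 0.05 (8.56% over all genes), 4 higher and 3 lower. As the list was made with earlier results of these data known, this is not read as an excess. Maf, a transcription factor of keratinocyte differentiation, read 168, 155, 154, 211 and 172 in knockout mice 1 to 5, and 147, 77.4, 101 and 97.1 in wild-type mice 1 to 4. The groups did not overlap, with the knockout higher, as in 1.83% of all kept probe sets, and Maf was named for the smallest p of its list. The log2 difference was 0.73 (SE 0.19, limma adjusted p = 0.311, and 0.00210 before adjustment). Fosl2, a partner in AP-1, read 101 ± 12.8 against 77.3 ± 8.82 (0.38, 0.498), and Notch2, a receptor that drives cells out of the basal layer, 92.2 ± 13.4 against 121 ± 17.0 (-0.39, 0.506). The plot of gene lists sets these differences beside those of the hair follicle.

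**Figure D4:**
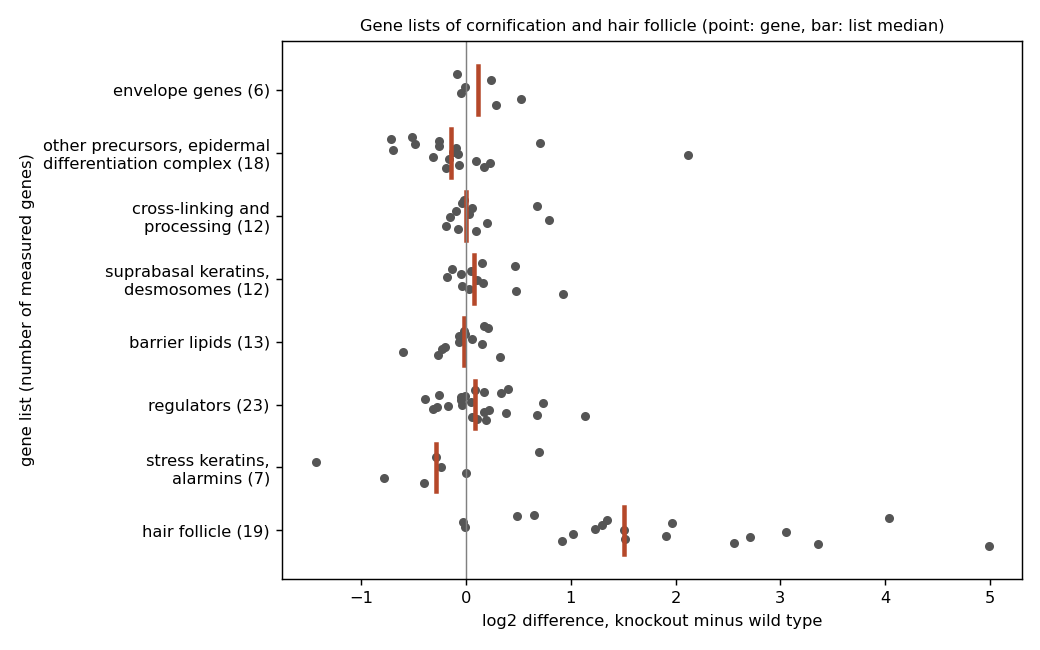
Log2 difference between knockout and wild-type skin (horizontal axis) for each measured gene of the envelope set, 5 further cornification lists, stress keratins and alarmins, and hair follicle genes; points are genes and bars list medians, with the number of genes in brackets. The 6 cornification groups have medians between -0.14 and 0.12, while that of the hair follicle genes is 1.51. Limma passed 0 of the hair follicle genes, which were high in knockout 1, 2 and 5 and not in knockout 3 and 4.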

How the data were processed

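Whole-skin RNA of 9 mice was hybridised to Affymetrix arrays. The authors made signals with Microarray Suite 5.0, per the labels; the deposited values are natural log signals, a scale settled from the numbers, since the exponential of each is a multiple of 0.1 to within 0.002. The mean signal, trimmed by 2% at each end, is 200.11 to 200.133 per array. Values were turned to log2 with no pseudocount or further normalisation. Probe sets were kept where the signal was at or above the array's 40th percentile in at least 4 of 9 arrays; genes are represented by their brightest kept probe set.

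The genotypes were compared with limma 3.58.1 under R 4.3.3 (mean-variance trend, two-sided, Benjamini-Hochberg over 7658 probe sets). It was tested on simulated data with 7658 probe sets, of which 200 were changed, with noise independent between probe sets. There limma recovered 31.7% of 1.5-fold, 69.3% of 2-fold and 95.5% of 4-fold changes. In the real comparison 4 probe sets passed, so its adjusted cut-off was stricter. The shares therefore do not give the power of the real comparison. Symbols came from the platform annotation; probe sets with several genes were given none, except for the Sprr2 family.

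The members and lists were chosen with earlier results of these data known. Named were all members, the 3 genes of smallest p per list, and the 5 and 3 genes most correlated with the members' profile and with Lor; any other gene was picked with its values in view. The precision is limited by the number of mice. Alternatives were other pseudocounts, filters, normalisations, variance models, covariates and blocks, and each array left out.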

Additional observations from a re-analysis of the deposited data

Results flagged for a closer look

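Among the members, in 3 cases 1 mouse lay far from the others of its genotype, judged by its gap to the nearest mouse as a share of the group's whole range. For Ivl it was wild type 3, at 43.6 with the nearest at 63.8 (gap 0.838 of the range). For Sprr1b (100445_f_at) it was knockout 4, at 612 with the nearest at 170 (0.816). For Sprr3, which is below the filter level, it was wild type 4, at 28.1 with the nearest at 11.6 (0.948).

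Knockout 4 was also the far mouse for Alox12b (299, nearest 191, 0.801), Krt1 (5312, nearest 2216, 0.792), Krt16 (460, nearest 149, 0.755) and Krt6b (946, nearest 394, 0.753). Knockout 3 was the far mouse for Alox12e (2837, nearest 941, 0.908) and Sprr2b (1320, nearest 232, 0.947). For Fosl2 it was wild type 3 (90.4, nearest 74.4, 0.856). In all, 82 groups of values were examined and 10 stood out, and several of these genes were chosen for their uneven values. The cut-off gives about 1 in 20 for independent, normally distributed values. These are linear signals of genes that share the same arrays, so no excess can be read from the count.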

How the results depend on the processing

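The count of 0 envelope probe sets passing limma held in all 22 alternatives, with the smallest adjusted p at 0.253. The median log2 difference of the same 6 genes ran from 0.048 within the 9-decimal arrays to 0.15 with quantile normalization. It was -0.0069 with the filter at the 60th percentile, which drops Ivl. With no filter, which adds the dim Sprr3 and Tgm3, it was 0.26. Ivl kept its direction in all 21 of its alternatives (0.28 to 0.68); the filter at the 60th percentile removed it. Differences near 0 turned: Ppl was 0.025 with quantile normalization, 0.026 with the hair follicle covariate and 0.14 within the 9-decimal arrays; Lor was 0.21 and Sprr1b (100445_f_at) 0.042 with that covariate; Sprr1b (100446_r_at) was 0.079 within the 7-decimal arrays; and Flg was -0.45 within the 9-decimal arrays. With 1 array left out the ranges were -0.10 to 0.055 for Ppl, -0.23 to 0.086 for Lor, -1.20 to 0.31 and -0.26 to 0.030 for the Sprr1b probe sets, and 0.12 to 0.54 for Flg. The cause was not tested. Over all probe sets the count of 4 became 7 with pseudocount 64, 9 with array weights, 10 within the 7-decimal and 0 within the 9-decimal arrays, and 4 to 8 with 1 array left out (7 without knockout 2 or 3, 8 without knockout 4). Within the 7-decimal arrays 1 regulator passed, Dlx3 (log2 2.14, adjusted p = 0.0300, named after its values were seen), and in no other alternative did a gene of the 5 lists pass. Same-numbered mice share only a number, with correlations of their deviations of 0.11, -0.012, -0.046 and 0.019; with that number as a replicate block the count was 1 and no envelope probe set passed.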
